A study of Mus musculus with 2 samples.

Results

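Among GFP+ cells of denervated muscle, 89 barcodes carried transcripts of both Cd209a and Flt3 and passed the conditions below, and they are called Cd209a Flt3 cells here. They were taken from 18579 barcodes with at least 2000 unique molecular identifiers (UMIs, each counting 1 captured RNA molecule) and under 10% mitochondrial counts, so they made up 0.479% of those barcodes (0.385 to 0.589%, exact binomial 95% interval). A barcode was a member if it held at least 1 UMI of Cd209a and 1 of Flt3, no UMI of Xcr1, Clec9a or Ccr7, and at most 5 UMIs of C1qa and C1qb together. These 7 genes chose the cells, so their levels below are a description only. With 1 library and cells picked on their own transcripts, no difference was tested and no p-value is given.

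The cells came from S100GFPtg mouse muscle, in which the S100B promoter drives green fluorescent protein to label Schwann cells, and the label calls the animals WT. The sciatic nerve of a 2-month-old male had been crushed, and tibialis anterior and gastrocnemius muscles were digested at 7 days after injury. Living cells with the reporter (GFP+ and negative for propidium iodide) were sorted and sequenced as 1 droplet library of 3′ tags. The series text speaks of 1 crushed mouse and the methods of pooled males, so the number of animals is uncertain. All groups named below lie in this library and share genotype, injury and sort.

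Conventional dendritic cells are antigen-presenting cells that grow under Flt3 ligand and carry its receptor Flt3. One branch, with Xcr1 and Clec9a, depends on Irf8 and Batf3 and presents antigen to CD8+ T cells. The other branch uses Irf4, carries the integrin Itgam and C-type lectins, and presents antigen on MHC class II mainly to CD4+ T cells. Either branch can mature, gain Ccr7 and Fscn1 and leave for the lymph node. Monocytes that enter injured tissue share several genes with the second branch, and Cd209a, a relative of the pathogen receptor DC-SIGN, is one gene found in both settings.

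Members were deep barcodes, with a median of 11066 UMIs (2058 to 24536) and 2783 genes, and together they held 937269 UMIs. They were compared with 255 Xcr1 Clec9a cells (at least 2 UMIs of these genes together, median depth 15713), 40 Ccr7 Fscn1 cells (median depth 3069) and 241 Ly6c2 Chil3 cells, which carry genes of inflammatory monocytes (median depth 9540). The compared groups had the same limit of 5 C1q UMIs. The Xcr1 Clec9a and Ly6c2 Chil3 groups also had no Cd209a and no Ccr7, and the latter no Flt3. The 18490 other barcodes past the filter are called the rest. Endothelial cells (126 barcodes with Cdh5 and Pecam1 and without Ptprc, median depth 5283) served as cells that should lack dendritic cell genes. Levels are given as CPM, the UMIs of a gene summed over a group for each 1000000 UMIs of that group, with exact Poisson 95% intervals in brackets. Intervals throughout cover counting error only, and not the spread between animals. A gene is called higher or lower where the CPM values differed at least 2-fold and 1 of them reached 10 CPM. The library shared 372 barcodes with the GFP- library, and none of them was a member.

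Among the 32 gene lists read here, the MHC class II list had the highest summed CPM in members. Transcripts outside the lists were not ranked by abundance. The promoters of class II genes are known for a CCAAT sequence close to the start, bound by NF-Y next to the sites of other factors, so the sequences before 3 class II genes that the results below turn on are shown. The windows below are the 250 bases before the gene start, read 5′ to 3′ on the gene's strand, from RefSeq on build GRCm38.p6. Capitals mark each CCAAT, or ATTGG where it lies on the other strand. H2-Aa encodes the alpha chain of I-A and lies on the minus strand (chr17:34287824-34288073). H2-Eb1 encodes the beta chain of I-E on the plus strand (chr17:34305617-34305866). H2-Oa encodes a chain of the inhibitor H2-O, also on the plus strand (chr17:34092129-34092378).
H2-Aa: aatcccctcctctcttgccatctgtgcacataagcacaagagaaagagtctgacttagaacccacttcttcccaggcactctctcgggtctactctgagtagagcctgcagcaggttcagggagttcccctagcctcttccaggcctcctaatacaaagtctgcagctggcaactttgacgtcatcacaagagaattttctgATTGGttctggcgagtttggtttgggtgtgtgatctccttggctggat
H2-Eb1: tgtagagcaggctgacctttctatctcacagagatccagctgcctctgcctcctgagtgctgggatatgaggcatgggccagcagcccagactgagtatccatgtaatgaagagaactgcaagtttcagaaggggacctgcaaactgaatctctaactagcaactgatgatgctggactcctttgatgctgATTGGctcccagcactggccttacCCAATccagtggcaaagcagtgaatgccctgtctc
H2-Oa: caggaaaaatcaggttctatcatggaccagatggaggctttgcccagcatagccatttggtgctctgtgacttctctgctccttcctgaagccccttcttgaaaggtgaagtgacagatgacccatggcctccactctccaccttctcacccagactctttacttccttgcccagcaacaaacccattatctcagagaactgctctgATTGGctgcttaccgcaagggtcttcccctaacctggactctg
The matches began 48 bases before the start of H2-Aa, 59 and 35 bases before that of H2-Eb1 and 43 bases before that of H2-Oa. Of the 15 genes of the MHC class II list, 12 had windows in the table, and 10 of these held CCAAT on either strand. Counted by window, 11 of 16 windows of the list held it, against 33.8% of all 32851 windows in the table. A match is a description of these letters and does not show that a factor was bound.

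The depth limit was low, but a rule that requires UMIs of 2 genes also favours deep barcodes. Median depth was 11066 UMIs in members and 4351 UMIs in the rest. The limits on other classes were absolute numbers of UMIs, which shallow barcodes meet more easily. Cd209a was found in 1070 barcodes past the filter and Flt3 in 1023, but only 190 held both. Of the 101 that held both and were left out, 30 failed only on C1q, 28 only on Ccr7 and 24 only on Xcr1 or Clec9a. Another 255 barcodes met every condition but had Cd209a without Flt3, and 158 had Flt3 without Cd209a. These near misses were shallow, with medians of 3017 and 3030.5 UMIs. Within members, Cd209a ran from 1 to 43 UMIs a cell with a median of 7, and Flt3 from 1 to 6 with a median of 2. Only 1 Cd209a UMI was held by 15 members, and 12 of these also had only 1 Flt3 UMI. C1qa and C1qb were at 0 in 50 members and at the limit of 5 in 3.

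Values were taken on both sides of the Cd209a, Flt3 and C1q limits. Members with 1 Cd209a UMI had 5032 CPM of H2-Ab1 and those with 2 or more had 7600 CPM. Cells with Cd209a and no Flt3 had 6458 CPM of H2-Ab1, 70.8 CPM of Irf4 and 10.5 CPM of Cd7, against 164 CPM of Cd7 in members. Cells with Flt3 and no Cd209a had 3387 CPM of H2-Ab1 and 10.1 CPM of Irf4. Just outside the C1q limit, 5 cells with 6 to 8 C1q UMIs had 3594 CPM of Apoe, a lipid carrier of macrophages, and 16 members with 3 to 5 C1q UMIs had 2778 CPM. Over members as a whole Apoe was at 658 CPM, but at 318 CPM with a C1q limit of 2 UMIs, 2803 CPM with none and 1082 CPM as a mean over cells.

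Depth moved with RNA of other classes. The 18 members with fewer than 5000 UMIs had 10224 CPM of the mesenchymal list (11 genes such as Col1a1 and Dcn), and the other 71 had 691 CPM. For the macrophage list (18 genes) the same values were 6983 and 1553 CPM, and for the MHC class II list 26524 and 48572 CPM. The part of this RNA in the levels given below was not tested.

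**Figure D1:**
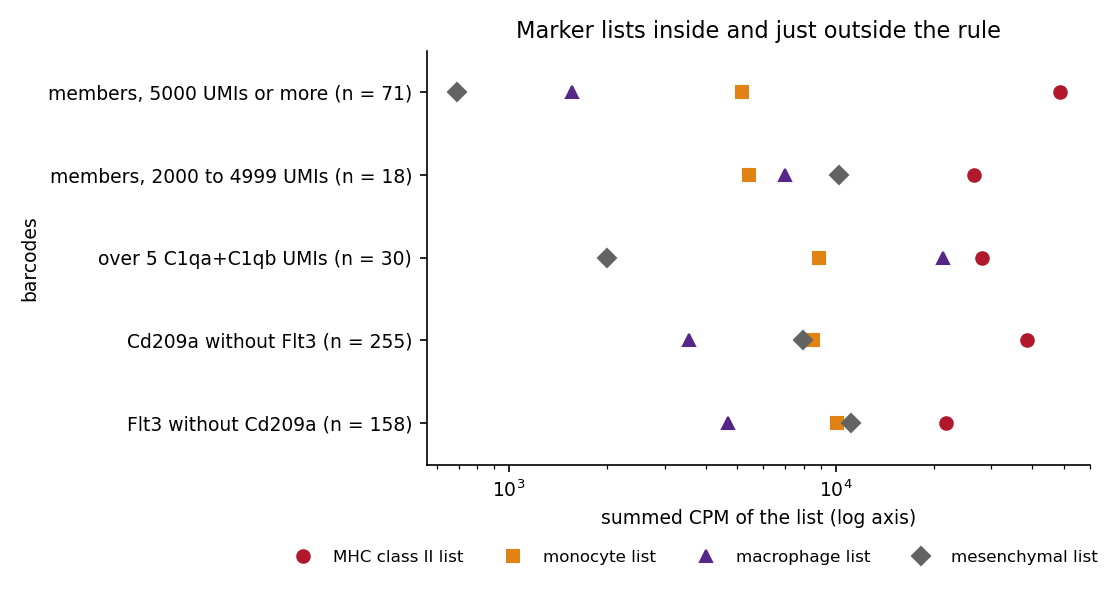
Summed CPM of 4 marker lists (x axis, log scale) in members by depth and in 3 sets of barcodes that miss the rule by 1 condition (y axis, number of barcodes in brackets). The mesenchymal list reads 691 CPM in deep members and 10224 CPM in shallow ones, and the macrophage list, which holds the C1q genes of the rule, is highest, at 21343 CPM, in the barcodes over the C1q limit.

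The label of dendritic cells was checked against marker lists. Of 22 genes listed for conventional dendritic cells of type 2, 20 were detected and the list summed to 5730 CPM (5578 to 5886), against 1544 CPM in Xcr1 Clec9a cells, 1681 CPM in Ccr7 Fscn1 cells and 3933 CPM in Ly6c2 Chil3 cells. Dtx1 and Esam, known from a Notch-dependent kind of these cells in spleen, had no UMI, which allows up to 3.20 CPM. Ffar2 had 1 UMI, Clec4a4 had 2 and Cd1d1 had 3. The type 2 list holds Cd209a and Flt3, which the rule required, and they gave 1182 CPM of the members' sum. They gave 146 CPM in Xcr1 Clec9a cells, 193 CPM in Ccr7 Fscn1 cells and none in Ly6c2 Chil3 cells, from which both were barred. Their detection and that part of the differences were thus set by the choice of cells. The sum over 14 type 1 genes was 477 CPM, against 4543 CPM in Xcr1 Clec9a cells. That list holds Xcr1 and Clec9a, which the choice of cells fixed at 0 in members and which gave 231 and 220 CPM in the compared cells. The sum over 15 genes of maturation was 943 CPM, of which Cd83 alone gave 592 CPM. The maturation genes Ccr7 (part of the rule), Cacnb3, Nudt17, Il12b and Mreg were at 0.

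Lists of other cells ranged from near 0 to clearly present. S100a8 and S100a9 of neutrophils, Cd3e of T cells, Cpa3 of mast cells and Sox10 of Schwann cells had no UMI in any member. Cd79a of B cells had 1 UMI. The neutrophil list summed to 12.8 CPM, with 9 of 10 genes at 0. The T and NK list gave 51.2 CPM, with 11 of 13 at 0. The B and plasma list was at 70.4 CPM, the mast and basophil list at 22.4 CPM and the Schwann list at 27.7 CPM. The plasmacytoid list was at 762 CPM, against 449 CPM in Xcr1 Clec9a cells, with 2 of its 12 genes at 0. Its defining gene Siglech had 4 UMIs, while Tcf4 and Bst2, which other cells also express, were at 318 and 299 CPM. The macrophage list was at 1853 CPM with all 18 genes detected, against 37494 CPM in C1q cells, but it holds C1qa and C1qb, which chose both groups, so part of that difference was set by the choice. The mesenchymal list was at 1218 CPM with all 11 genes detected. The monocyte list was the highest of these: its 15 genes summed to 5182 CPM (5037 to 5330) with all 15 detected, and single cells ran from 84.0 to 28864 CPM with a median of 2408 CPM. In Ly6c2 Chil3 cells the same list was at 23512 CPM. Chil3, which defines those cells, was at 10.7 CPM in members, and Ly6c2 was at 119 CPM with 54.5% of its UMIs in 1 cell. Lyz2 alone gave 3261 CPM of the members' monocyte list sum, and was at 912 CPM where barcodes were thinned before the rule. The data thus hold conventional dendritic markers in these cells together with genes of the monocyte list. The sum of that list was mostly Lyz2 and differed widely from cell to cell.

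The 25 genes with the highest ratio over the rest, among those of at least 50 CPM, were led by Cd7, a surface protein of lymphocytes, at 164 CPM (139 to 192) against 1.97 CPM in the rest. It was found in 33 of 89 members, the median cell was at 0 and the highest had 16.3 UMIs for each 10000. Across many features, 7.07% of the 8965 genes tested were higher in members than in the rest and 25.2% were lower. Receptors first known from natural killer cells were among the 25. Klrd1, which pairs with NKG2 receptors, was at 419 CPM (379 to 463) against 12.1 CPM, with a lowest, median and highest cell of 0, 2.03 and 19.3 UMIs for each 10000. Klrb1b was at 181 CPM against 9.14 CPM, Klrk1 (NKG2D) at 119 CPM against 10.3 CPM and Cd244a at 61.9 CPM against 7.37 CPM. Nkg7, Gzma and Ncr1, genes of natural killer cells, had no UMI in members.

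After each cell was thinned to 2000 UMIs, Klrd1 was found in 39.3% of members (29.1 to 50.3) and in 0 of 126 endothelial cells, which allows up to 2.38%. Without thinning it was found in 65.2% and 0.794%, and the median depth was 11066 UMIs in members and 5283 UMIs in endothelial cells. Klrd1 was found in 10.6% of Xcr1 Clec9a cells (7.09 to 15.03) and 0.830% of Ly6c2 Chil3 cells (0.101 to 2.97) after thinning. Cd7 was found in 19.1% of thinned members (11.5 to 28.8) and in none of the thinned cells of the 3 compared groups or the endothelium. Unthinned, Cd7 was in 37.1% of members and 0.392% of Xcr1 Clec9a cells.

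Other leading genes covered transcription, processing and adhesion. Bcl11a, a transcription factor of dendritic cell and B cell precursors, was at 105 CPM (84.9 to 127) against 4.92 CPM in the rest. Stat4, a signal transducer of interleukin-12, was at 149 CPM against 11.2 CPM, with 16.4% of its UMIs in 1 cell. Napsa, an aspartic protease, was at 603 CPM (554 to 655) against 54.1 CPM and was found in 73 members. Itgb7, the beta chain of gut-homing integrins, was at 229 CPM (200 to 262) against 24.4 CPM and was found in 67. Il1r2, the decoy receptor of interleukin-1, was at 209 CPM against 24.3 CPM in 46 cells. Kynu, an enzyme of tryptophan breakdown, was at 74.7 CPM against 3.81 CPM, and Arap2, P2ry10, Grap2, Pkp3 and Map4k1 were 8.39 to 17.6 times the rest. The rest held 8248 C1q cells and 2909 cells with Pdgfra, so these ratios do not set members apart from other dendritic cells. None of the genes in this paragraph was among the 12 with the highest ratio over Xcr1 Clec9a cells. Itgb7 was among the 12 over Ccr7 Fscn1 cells, and P2ry10 and Grap2 among those over Ly6c2 Chil3 cells.

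**Figure D2:**
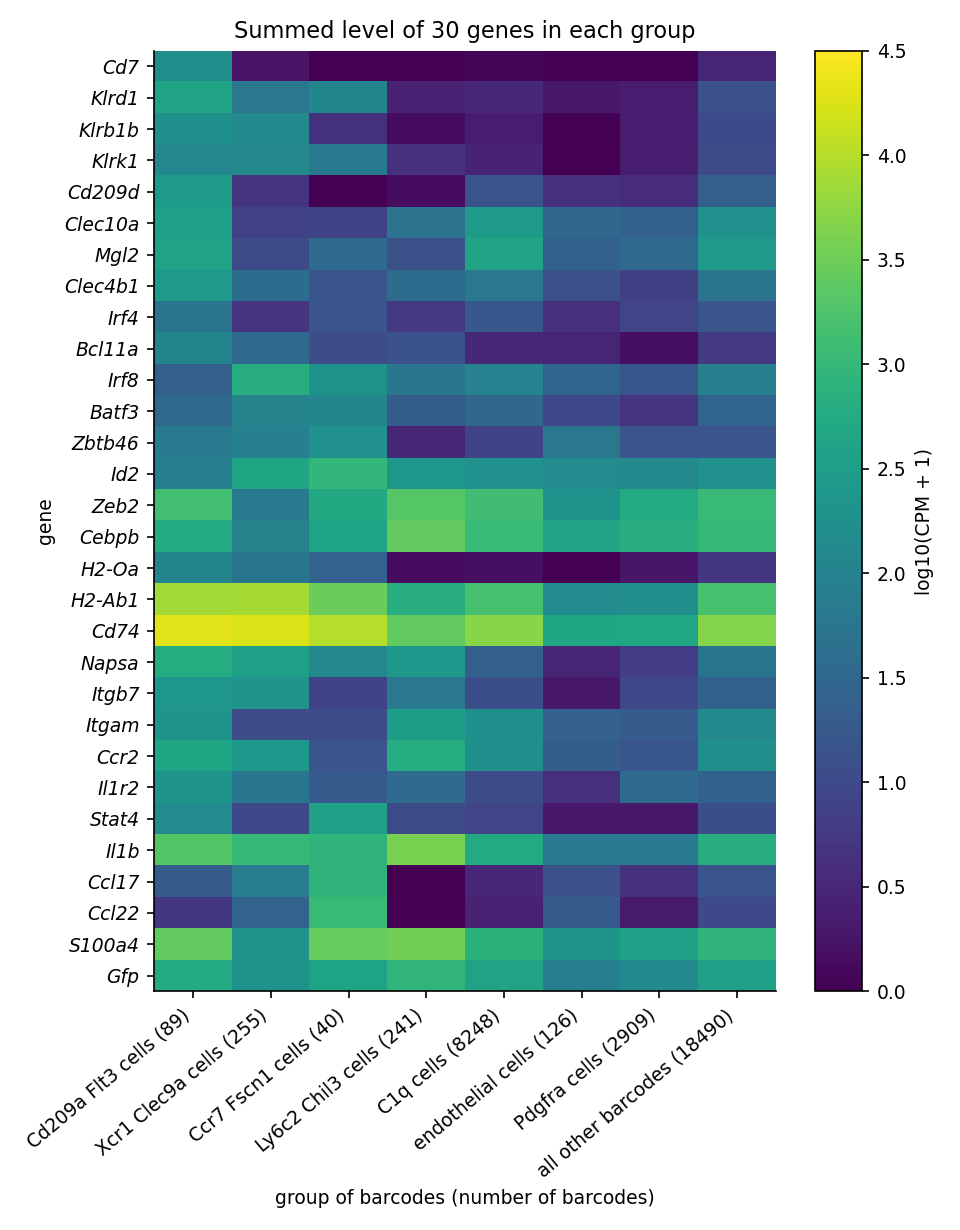
Level of 30 genes (y axis) in the 8 groups of barcodes (x axis, number of barcodes in brackets), as log10 of CPM plus 1 on the color scale. Cd7 reads 164 CPM in Cd209a Flt3 cells and 0.757 CPM in Xcr1 Clec9a cells, with no UMI in the other compared groups (which allows up to 10.7 CPM in Ccr7 Fscn1 cells and 1.25 CPM in Ly6c2 Chil3 cells), and Irf4 and Irf8 run in opposite directions between Cd209a Flt3 cells and Xcr1 Clec9a cells.

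Transcripts of the MHC class II list made up 47353 CPM in members (46913 to 47795), with single cells between 1918 and 130475 CPM and a median of 46605 CPM. Xcr1 Clec9a cells had 43716 CPM, Ccr7 Fscn1 cells 24878 CPM and Ly6c2 Chil3 cells 7908 CPM (7796 to 8021). The log2 ratio of members over Ly6c2 Chil3 cells was 2.58 (2.56 to 2.61). Cd74, the invariant chain that guards the groove of class II molecules, was at 19852 CPM. H2-Aa and H2-Ab1, the chains of I-A, and H2-Eb1, the beta chain of I-E, were at 8548, 7394 and 7436 CPM, and each was detected in 88 of 89 cells. The H2 genes are close relatives, so reads could be shared or lost between them.

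Of 14 class II genes tested against Ly6c2 Chil3 cells, 11 were higher in members and 1, the lysosomal protease Lgmn, was lower. In that comparison 9.34% of 7979 genes were higher and 14.5% were lower. The median log2 ratio of the list was 2.61, and that of all genes tested was -0.09. H2-Oa, part of the inhibitor of peptide loading, differed most, at 108 CPM (87.8 to 131) against 0.416 CPM from 1 UMI, a log2 ratio of 8.02 (5.51 to 13.34), or 6.43 against the floor of 3 UMIs used for ranking. Its partner H2-Ob was at 49.1 CPM against 1.66 CPM. The loading factor H2-DM was higher too, with H2-DMa at 692 CPM against 295 CPM. Ciita, the master regulator of class II transcription, was at 50.1 CPM (36.9 to 66.7) against 10.4 CPM. The 11 higher genes thus included chains, loading factors and the regulator, while the chain gene H2-Eb2, at 8.54 against 0.416 CPM, was too low to be tested.

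Against Xcr1 Clec9a cells, 4 of 14 class II genes were higher and 1 was lower, beside 11.9% and 10.1% of 7851 genes tested. The higher ones act in the endosome: the reductase Ifi30 (1119 CPM against 323), the proteases Ctss (969 against 365) and Lgmn (146 against 58.0), and H2-DMb2 (80.0 against 36.3). H2-Ob was lower, at 49.1 CPM against 114 CPM. H2-Aa differed by a log2 ratio of -0.04 (-0.07 to -0.0021) and Ciita by 0.06 (-0.43 to 0.52).

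**Figure D3:**
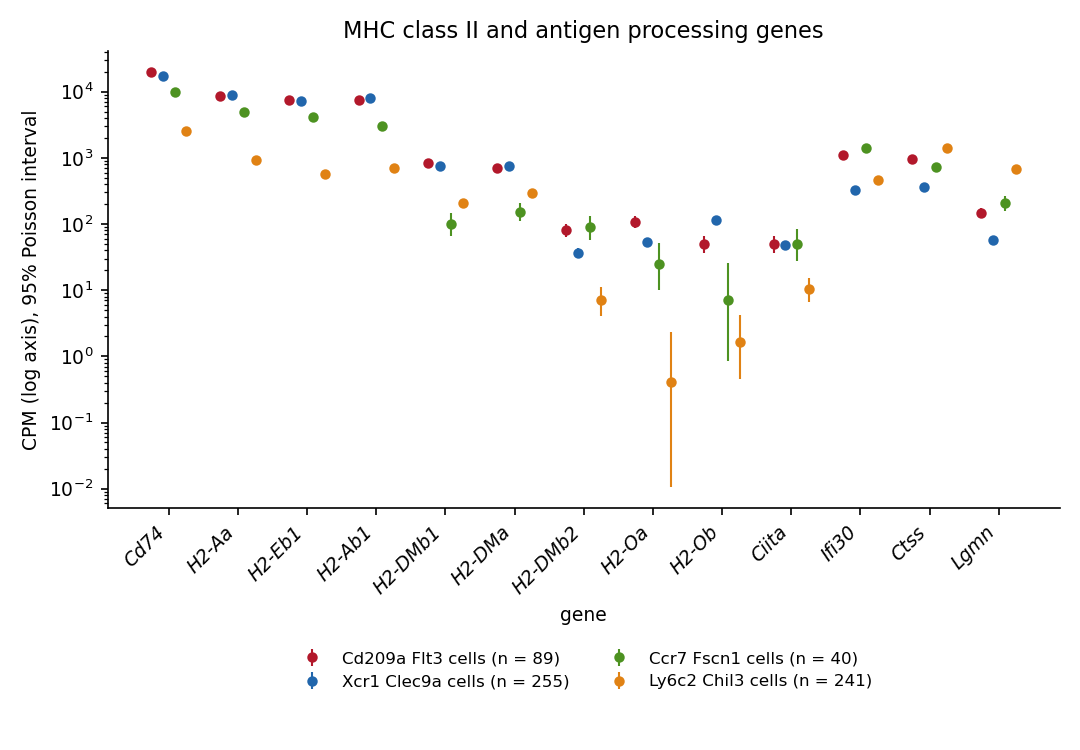
CPM (y axis, log scale) of 13 class II and processing genes (x axis) in members and the 3 compared groups, with exact Poisson 95% intervals that cover counting error only. Members and Xcr1 Clec9a cells lie close together for Cd74 and the classical chains, and H2-Oa falls from 108 CPM in members to 0.416 CPM in Ly6c2 Chil3 cells.

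Among transcription factors, Irf4, the factor of the second dendritic branch, was at 53.3 CPM (39.6 to 70.3) in members, 3.78 CPM in Xcr1 Clec9a cells, 14.3 CPM in Ccr7 Fscn1 cells and 4.57 CPM in Ly6c2 Chil3 cells. It was found in 26 members, and 22.0% of its UMIs lay in 1 cell. Irf8 was at 22.4 CPM (13.9 to 34.3) from 21 UMIs in 10 cells, against 627, 200 and 57.4 CPM. The log2 ratio over Xcr1 Clec9a cells was 3.82 (2.96 to 4.76) for Irf4 and -4.81 (-5.50 to -4.19) for Irf8. Where barcodes were thinned before the rule, Irf4 was at 95.7 CPM and Irf8 at 38.3 CPM, and Irf8 was at 38.5 CPM with no C1q limit. The 2 factors thus ran in opposite directions between these dendritic groups.

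Zeb2, a repressor expressed in monocytes and the second dendritic branch, was at 1362 CPM (1289 to 1439), against 67.3 CPM in Xcr1 Clec9a cells and 2085 CPM in Ly6c2 Chil3 cells. Batf3 and Id2, needed for the first branch, were at 35.2 and 82.2 CPM, against 104 and 454 CPM in Xcr1 Clec9a cells. Of 24 factors tested in that comparison, 5 were higher (Irf4, Tcf4, Zeb2, Cebpb, Bcl11a) and 3 were lower (Irf8, Batf3, Id2), beside 11.9% and 10.1% of all genes tested, so the lower count was near that share. Zbtb46, which marks conventional dendritic cells and endothelium, was at 74.7 CPM (58.2 to 94.4), near the 89.5 CPM of Xcr1 Clec9a cells, with a log2 ratio of -0.26 (-0.65 to 0.11). In Ly6c2 Chil3 cells it was at 2.08 CPM. After thinning, Zbtb46 was in 10.1% of members (4.73 to 18.3) and none of 241 Ly6c2 Chil3 cells, which allows up to 1.24%. Unthinned it was in 27.0% and 2.07%.

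Some factors were lower in members than in Ly6c2 Chil3 cells. Maf was at 22.4 CPM (13.9 to 34.3) against 187 CPM and Cebpb at 580 CPM against 2581 CPM. Of 24 factors tested there, 5 were higher (Irf4, Zbtb46, Tcf4, Bcl11a, Ikzf1) and 5 were lower, among them Maf, Cebpb, Irf8 and Id2, beside 9.34% and 14.5% of all genes tested. Against Ccr7 Fscn1 cells, 7 were higher and 8 lower, beside 16.1% and 20.2% of 8676 genes tested. The lower ones included Relb (82.2 CPM against 450) and Nr4a3 (388 CPM against 1374), both induced on activation.

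The C-type lectins, receptors for sugars on microbes and dying cells, were read as a list, with 21 genes measured. They summed to 3506 CPM (3387 to 3628), 454 CPM in Xcr1 Clec9a cells, 725 CPM in Ccr7 Fscn1 cells and 3002 CPM in Ly6c2 Chil3 cells. Cd209a gave 988 CPM of this, and since the rule required it in members and the choice of Xcr1 Clec9a and Ly6c2 Chil3 cells barred it, its call as higher over those groups was fixed. It is also 1 of the genes higher than in Ccr7 Fscn1 cells, which the rule favours. Of 15 lectins tested, 12 were higher than in Xcr1 Clec9a cells and 1, Ly75, was lower, beside 11.9% and 10.1% of all genes tested. The same counts against Ccr7 Fscn1 cells were 11 and 1, beside 16.1% and 20.2%. Against Ly6c2 Chil3 cells, 6 of 14 were higher and 6 lower, beside 9.34% and 14.5%.

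The members of the lectin list did not share 1 pattern. Clec10a and Mgl2, a related pair that binds galactose and whose reads may be shared, were at 374 CPM (336 to 416) and 395 CPM (356 to 437). They were at 49.9 and 12.1 CPM in Ly6c2 Chil3 cells but at 284 and 429 CPM in C1q cells, the 8248 macrophage-type barcodes with at least 10 C1q UMIs. Cd209d, a close relative of Cd209a, was at 277 CPM (245 to 313) in 35 cells, with 13.1% of its UMIs in 1 cell, and at 0.416 CPM in Ly6c2 Chil3 cells. Cd209c was at 23.5 CPM from 22 UMIs. Clec4b1 was at 256 CPM against 38.7 CPM in Ly6c2 Chil3 cells. Clec4e and Clec4d, receptors for mycobacterial and damaged-cell ligands, were lower than in Ly6c2 Chil3 cells, at 138 CPM against 843 CPM and 60.8 CPM against 556 CPM, with 31.8% and 26.3% of the members' UMIs in 1 cell. Mrc1, the mannose receptor, was at 503 CPM against 280 CPM, which is under 2-fold. After thinning, Clec10a was in 39.3% of members (29.1 to 50.3) and in 11.1% of endothelial cells (6.21 to 17.9), and unthinned in 71.9% and 11.9%.

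Against Xcr1 Clec9a cells, the 12 genes with the highest ratio were Cd209a, Cd7, Cd209d, Nrg1, Clec10a, Ccl5, Mcemp1, Mgl2, Ifitm6, Tmem176a, Cybb and Tmem176b. Cybb, the catalytic subunit of the phagocyte oxidase, was at 546 CPM (500 to 596) in 76 cells against 16.9 CPM. Tmem176a and Tmem176b, a pair of ion channels of dendritic cells, were at 474 and 475 CPM against 14.6 and 16.1 CPM. Nrg1, a growth factor that Schwann cells respond to, was at 254 CPM (223 to 288) against 4.29 CPM, but 79.8% of its UMIs came from 1 cell and only 12 cells had any. The chemokine Ccl5 was at 116 CPM, with 43.1% of its UMIs in 1 cell. Where barcodes were thinned before the rule, Nrg1 was at 3.19 CPM, and as a mean over cells at 152 CPM. The lowest ratios, apart from Xcr1 and Clec9a themselves, included Tlr3 (2.13 CPM against 139), Itgae (0 against 112), Ly75 (1.07 against 91.3) and Irf8. Itgae, the integrin CD103, was at least 34.9-fold lower.

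Against Ccr7 Fscn1 cells, members had more Ccr2 and less of the maturation list, at 943 CPM against 10984 CPM, with Ccr7 and Fscn1 fixed or enriched by the choice of cells. Ccr2, the receptor that draws monocytes into tissue, was at 437 CPM (396 to 482) against 14.3 CPM from 4 UMIs. Emb, Cfp, Alox5ap and Itgam were at 332, 262, 783 and 212 CPM, against 3.57, 10.7, 39.3 and 10.7 CPM. The chemokines Ccl22 and Ccl17 were at 4.27 and 19.2 CPM against 1089 and 850 CPM. Il12b, a subunit of interleukin-12, had no UMI in members against 336 CPM, at least 105-fold lower, and Aldh1a2, which makes retinoic acid, was at 3.20 CPM against 275 CPM. Ccr7 Fscn1 cells were shallow, and their mesenchymal list read 6590 CPM against 1218 CPM in members. The part of that RNA in these differences was not tested.

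Against Ly6c2 Chil3 cells, Klrd1, Cd209d, Klrb1b, P2ry10, Cd7, Ctnnd2, H2-Oa, Grap2, Zbtb46 and Klrk1 had the highest ratios outside the rule. P2ry10, a receptor for lysophospholipids, was at 165 CPM (140 to 194) against 0.416 CPM. The lowest ratios were those of S100a9, Chil3, S100a8, Fabp4, Retnlg, Spp1, Slpi, Cxcl1, Fabp5, Prg4, Ccl24 and Il1a. Neutrophil genes were part of this contrast: S100a9 and S100a8 were at 745 and 458 CPM in Ly6c2 Chil3 cells and at 0 in members, and the neutrophil list read 1583 against 12.8 CPM. Spp1, which encodes osteopontin, was at 14.9 CPM (8.17 to 25.1) from 14 UMIs in 8 cells, against 614 CPM in Ly6c2 Chil3 cells and 3541 CPM in Ccr7 Fscn1 cells. Lyz2, lysozyme of monocytes, was at 3261 CPM (3146 to 3378) against 15789 CPM, but at 912 CPM where barcodes were thinned before the rule, and Csf1r at 85.4 CPM (67.7 to 106) against 294 CPM. Of 15 monocyte genes, none was higher and 12 were lower in members, beside 9.34% and 14.5% of all genes tested. Ccr2 differed less, at 437 against 615 CPM, a log2 ratio of -0.49 (-0.65 to -0.33). Ly6c2 and Chil3 chose the compared group, so their part of this difference was set by the choice.

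As list sums, secreted messengers lay between Xcr1 Clec9a and Ly6c2 Chil3 cells, but single genes did not all do so. Cytokines summed to 2566 CPM, against 1448 and 5774 CPM in that order. Chemokines and their receptors summed to 5527 CPM, against 2696 and 19771 CPM. Il1b, the inflammatory cytokine interleukin-1 beta, was the most abundant of 18 cytokines at 1993 CPM (1904 to 2086), with cells at 0, 8.81 and 120 UMIs for each 10000 (lowest, median, highest). It was at 3854 CPM in Ly6c2 Chil3 cells and 1045 CPM in Xcr1 Clec9a cells, and in members at 1288 CPM where barcodes were thinned before the rule. Il12b was at 0, Il12a and Il23a had 1 UMI each, and Il6 and Il10 were at 35.2 and 17.1 CPM. None of 13 cytokines tested was higher than in Ly6c2 Chil3 cells and 10 were lower, beside 9.34% and 14.5% of all genes tested. Of 19 chemokines and receptors, 2 were higher and 8 lower there, beside 9.34% and 14.5% of all genes tested, and the higher count was near that share. The neutrophil attractant Cxcl2 was at 467 CPM against 10100.2 CPM, and the monocyte attractant Ccl2 at 273 CPM against 1855 CPM. Ccl4 was at 2009 CPM (1919 to 2102) against 1925 CPM, a log2 ratio of 0.06 (-0.02 to 0.14), with 15.7% of its UMIs in 1 cell.

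Of the signals to T cells, Cd86 was at 685 CPM (633 to 740), against 443 to 477 CPM in the 3 compared groups. Cd83 was at 592 CPM, 254 CPM in Ly6c2 Chil3 cells and 728 CPM in Ccr7 Fscn1 cells. Cd80, Cd40 and Cd274 (PD-L1) were at 101, 65.1 and 45.9 CPM, and in Ccr7 Fscn1 cells at 271, 236 and 518 CPM. Tnfsf4 was at 2.13 CPM and Cd70 at 0. Against Ccr7 Fscn1 cells, 3 of 13 such genes were higher and 6 lower, beside 16.1% and 20.2% of all genes tested. The inhibitory receptor Cd300a was at 269 CPM (237 to 304) in 71 cells, against 32.8 CPM in Xcr1 Clec9a cells and 180 CPM in Ly6c2 Chil3 cells.

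The sensors Cd14 and Tlr2 lay between Xcr1 Clec9a and Ly6c2 Chil3 cells. Cd14, a partner of Toll-like receptors, was at 1243 CPM (1173 to 1316), against 234 CPM in Xcr1 Clec9a cells and 2252 CPM in Ly6c2 Chil3 cells. Tlr2 was at 133 CPM against 17.2 and 335 CPM. Tlr7 was at 8.54 CPM against 5.55 and 50.3 CPM. It rested on 8 UMIs in 4 members, too few to place it above Xcr1 Clec9a cells. Of 11 sensors tested against Ly6c2 Chil3 cells, none was higher and 6 were lower, beside 9.34% and 14.5% of all genes tested. Of 9 against Xcr1 Clec9a cells 5 were higher and 2 lower, beside 11.9% and 10.1%. Itgam, the integrin CD11b, was at 212 CPM (184 to 244), 10.3 CPM in Xcr1 Clec9a cells and 313 CPM in Ly6c2 Chil3 cells. Itgax, or CD11c, was at 57.6 CPM (43.3 to 75.2), 35.8 CPM and 6.24 CPM in the same order. Members thus held both integrins, with Itgax above and Itgam below Ly6c2 Chil3 cells. Of 13 integrin and adhesion genes tested, 2 were higher than in Xcr1 Clec9a cells, Itgam among them, and 3 were lower (Itgal, Itgae and Cd24a), beside 11.9% and 10.1% of all genes tested. MHC class I, which presents to CD8+ T cells, summed to 4361 CPM (4228 to 4496), against 4284 CPM in Xcr1 Clec9a cells, 7729 CPM in Ccr7 Fscn1 cells and 4751 CPM in Ly6c2 Chil3 cells. None of its 11 genes was higher than in these groups, beside 11.9%, 16.1% and 9.34% of all genes tested. Lower were 4, 5 and none, beside 10.1%, 20.2% and 14.5%. Tap1, Tap2, Psmb8 and Psmb9, which cut and carry its peptides, were lower than in Xcr1 Clec9a cells, with Psmb8 at 354 CPM (317 to 394) against 771 CPM.

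The reporter transcript, on whose protein the cells were sorted, was present in members. Gfp was at 593 CPM (545 to 645) from 556 UMIs, with a lowest, median and highest cell of 0, 2.85 and 37.3 UMIs for each 10000, and 8.63% of its UMIs in 1 cell. In order of level, Ly6c2 Chil3 cells had 885 CPM (847 to 923), then came members, Ccr7 Fscn1 cells with 414 CPM (342 to 497), C1q cells with 383 CPM, Xcr1 Clec9a cells with 203 CPM (189 to 217), cells with Pdgfra with 140 CPM and endothelial cells with 86.2 CPM (69.1 to 106). Ccr7 Fscn1 cells and C1q cells did not differ beyond counting error, and the other neighbours in this order did. The log2 ratio of members over Ly6c2 Chil3 cells was -0.58 (-0.71 to -0.44) and over Xcr1 Clec9a cells 1.55 (1.39 to 1.71). After thinning, Gfp was found in 50.6% of members (39.8 to 61.3), 63.5% of Ly6c2 Chil3 cells (57.1 to 69.6), 26.3% of Xcr1 Clec9a cells (21.0 to 32.1) and 11.1% of endothelial cells (6.21 to 17.9). Unthinned shares were 71.9, 85.5, 69.8 and 15.9%. A second feature for the protein had no UMI in members, and reads fitting both features may have been left uncounted.

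S100b, the gene whose promoter drives the transgene, had 1 UMI in 89 members (1.07 CPM, 0.0270 to 5.94), 8.92 CPM in endothelial cells and 4.65 CPM in the rest. Other S100 genes were abundant. S100a6 was at 3103 CPM (2991 to 3217) and S100a4, a calcium-binding protein of motile cells, at 2625 CPM (2522 to 2730). In Xcr1 Clec9a cells S100a4 was at 204 CPM, a log2 ratio of 3.68 (3.57 to 3.80), and in Ly6c2 Chil3 cells it was at 3403 CPM. Of the 9 genes of this family, S100a8, S100a9 and S100b were thus absent or nearly so in members while S100a4, S100a6, S100a10 and S100a11 exceeded 1000 CPM.

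**Figure D4:**
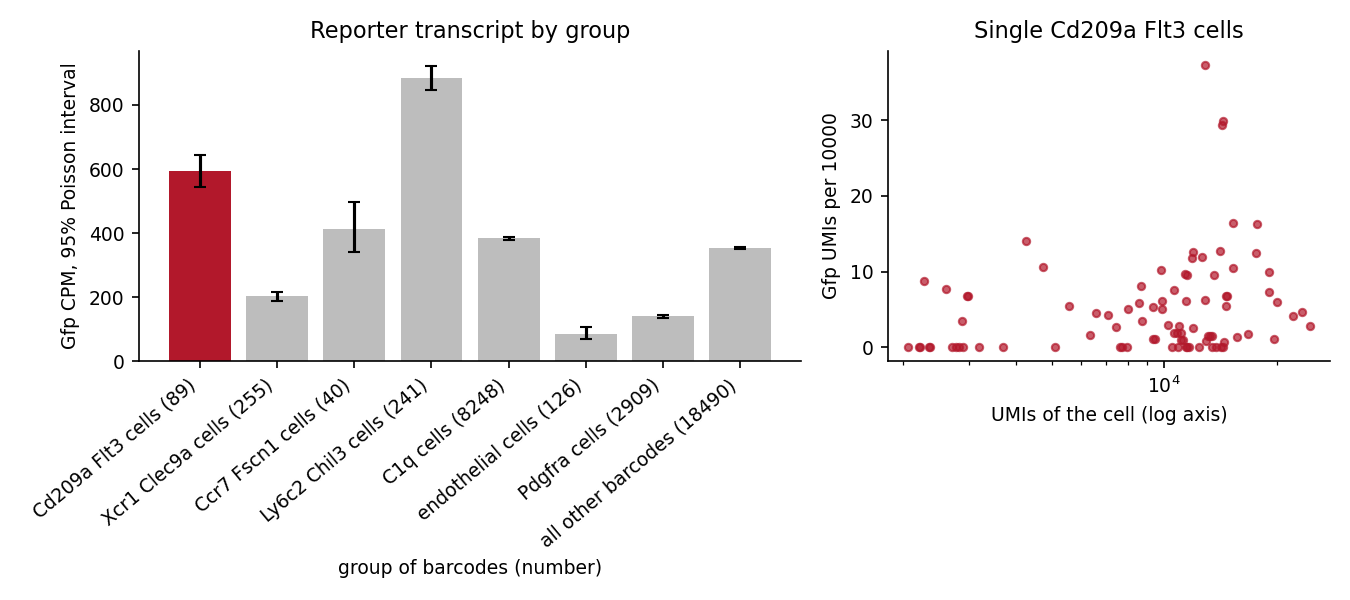
Left, Gfp CPM (y axis) in each group of barcodes (x axis, number in brackets) with exact Poisson 95% intervals. Right, Gfp UMIs for each 10000 UMIs in single Cd209a Flt3 cells (y axis) against the UMIs of the cell (x axis, log scale). Members stand at 593 CPM between Ly6c2 Chil3 cells at 885 CPM and Ccr7 Fscn1 cells at 414 CPM, and single members run from 0 to 37.3.

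Members were not uniform. Clustering on 1000 variable genes without the genes of the rule gave 3 subclusters of 39, 26 and 24 cells, called by number. The genes that follow helped to define them, so their differences are descriptions. At a finer resolution of 1 instead of 0.5 there were 5 clusters, which split subclusters 1 and 3 and kept all 26 cells of subcluster 2 together. Cd209a was at 1034, 839 and 1066 CPM in subclusters 1 to 3, and Flt3 at 162, 210 and 230 CPM.

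Subcluster 1 (39 cells) was led by Clec4e, Nrg1, Retnla, Il1rn and Hp, found in 20, 9, 3, 13 and 8 of its cells. Lyz2 was at 6486 CPM (6245 to 6735), against 809 CPM in subcluster 2 and 496 CPM in subcluster 3. Single cells of subcluster 1 ran from 3.20 to 209 Lyz2 UMIs for each 10000 with a median of 34.1, and the medians of the others were 4.86 and 3.68, so the ranges overlapped. Ccr2 was at 647 CPM (572 to 729) against 259 and 277 CPM, Cd14 at 2027 CPM against 561 and 660 CPM, and Fcgr3 at 229 CPM against 19.1 and 11.7 CPM. The monocyte list read 9053, 2666 and 1429 CPM in the 3 subclusters, but Plac8 and Ly6c2 of that list were highest in subcluster 2, at 664 and 332 CPM against 358 and 57.3 CPM in subcluster 1. The macrophage list moved with the list sum, at 3094, 1053 and 644 CPM, and so did Apoe, at 1196, 301 and 144 CPM, and 10 of the 39 cells had fewer than 5000 UMIs. The part of that RNA in the subcluster was not tested. Cd7 was at 7.16 CPM (1.48 to 20.9) from 3 UMIs, and Klrd1 at 196 CPM (156 to 243).

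Subcluster 2 (26 cells) was led by Pakap, Meg3, Dpt, Pclaf and Crip2, found in 2, 5, 6, 4 and 11 of its cells. It had the highest Cd7, at 416 CPM (341 to 502) in 17 cells, Cd209d at 591 CPM (502 to 692), Bcl11a at 202 CPM (151 to 264) and Tcf4 at 667 CPM (572 to 774). The plasmacytoid list read 1556 CPM here, against 351 and 621 CPM in subclusters 1 and 3. Tcf4 and Bst2 gave 667 and 606 CPM of that sum, and the 4 Siglech UMIs all lay in 3 cells of subcluster 2. The class II list sum was lower than in the other subclusters, with H2-Ab1 at 5206 CPM (4934 to 5490). Not every gene of the list went this way. H2-DMa and H2-DMb1 were at 759 and 980 CPM, against 719 and 826 CPM in subcluster 1, with intervals that overlapped. Stmn1 and Pclaf, known from dividing cells, were at 256 and 103 CPM, against 43.0 and 7.16 CPM in subcluster 1. Stmn1 was found in 11 of the 26 cells, with a median of 0 and a highest cell at 18.9 UMIs for each 10000, and Pclaf in 4. Ly6c2 was at 332 CPM, most of it from the 1 cell noted above. Dpt is a gene of fibroblasts, and the mesenchymal list read 2739 CPM here against 869 and 234 CPM. Of the 26 cells, 7 had fewer than 5000 UMIs. The part of mesenchymal RNA in these values was not tested.

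Subcluster 3 (24 cells) was led by Kit, Col27a1, Ppm1l, Timd4 and Meis1, found in 8, 4, 4, 3 and 7 of its cells. It had the most class II, with H2-Ab1 at 10004 CPM (9621 to 10399) and the list at 58967 CPM, against 46929 and 36680 CPM in subclusters 1 and 2. H2-Oa was at 230 CPM (175 to 297) against 81.2 and 30.5 CPM. Stat4 was at 394 CPM (321 to 479) against 57.3 and 57.2 CPM, and Il1r2 at 449 CPM (371 to 539) against 112 and 130 CPM. Cd86 was at 1128 CPM (1002 to 1266), Cd83 at 855 CPM and Kit, the stem cell factor receptor, at 70.3 CPM against 2.39 and 7.63 CPM. The macrophage, mesenchymal and monocyte lists were lowest here, at 644, 234 and 1429 CPM, and only 1 cell had fewer than 5000 UMIs. In subclusters 1 to 3, Irf4 was at 54.9, 34.3 and 70.3 CPM with intervals that overlapped, Zbtb46 at 69.2, 83.9 and 74.2 CPM and Gfp at 654, 648 and 437 CPM.

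**Figure D5:**
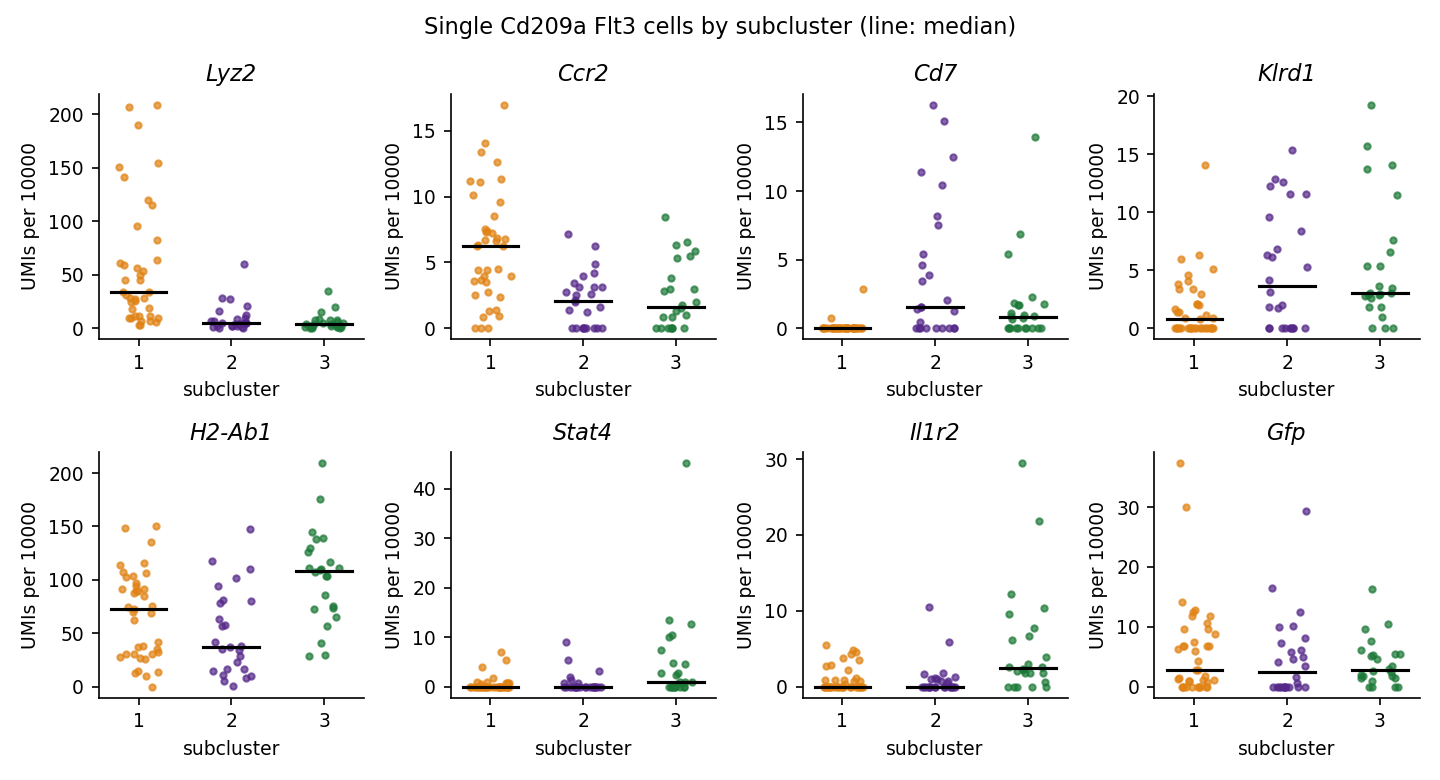
UMIs for each 10000 UMIs (y axis) of 8 genes in single Cd209a Flt3 cells by subcluster (x axis; 39, 26 and 24 cells), with the median as a line. Lyz2 and Ccr2 are highest in subcluster 1, Cd7 was found in 2 cells of subcluster 1 against 17 and 14 of the others, and the ranges overlap between subclusters for every gene shown.

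Cd7 and Nrg1 were found together in 3 cells, Cd7 alone in 30 and Nrg1 alone in 9. Cd7 and Ly6c2 were found together in 9 cells. Klrd1 was found in 58 members and Lyz2 in 84, and 54 had both, which with Lyz2 in nearly every member says little of the pair.

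The cell cycle list of 16 genes summed to 408 CPM (368 to 451) in members, with 20 of 89 cells at 0, a median cell at 158 CPM and the highest at 6234 CPM. The sum was 873 CPM in subcluster 2, against 253 and 183 CPM in subclusters 1 and 3. In subcluster 2, Ccna2, Ccnb2 and Hist1h2ap were each found in 1 cell, while Stmn1 and Pcna were in 11 and 14 cells. Xcr1 Clec9a cells had 1165 CPM and Ly6c2 Chil3 cells 196 CPM as sums, the latter above the median member. Mki67, a protein of dividing cells, was in 21 members and Top2a in 9, and 5 had both. Of 15 cycle genes tested against Xcr1 Clec9a cells none was higher and 11 were lower, beside 11.9% and 10.1% of all genes tested. Of 9 tested against Ly6c2 Chil3 cells 7 were higher and none lower, beside 9.34% and 14.5%.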

How the data were processed

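Droplet 3′ libraries were made from GFP+ cells sorted from denervated muscle. The authors deposited raw UMI counts per gene and barcode as whole numbers, with no normalization. The matrix header names Cell Ranger 8.0.1 and the submitters' processing notes name Cell Ranger 7.1.0 and mm10, while the study's methods name both GRCm39 with an added reporter sequence and GRCm38. No coordinates were therefore taken from the matrix. It held 36400 barcodes and 32287 features with a median of 2130 UMIs per barcode, and 18579 barcodes passed the filter. From the library of GFP- cells only the barcode names were used, to count those shared, and its expression was not analysed here.

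UMIs were summed over the cells of each group and divided by the group's total (scipy 1.17.1 and pandas 2.3.3 in Python 3.11.15). Intervals were exact Poisson for CPM, exact binomial for shares and exact conditional for ratios, at 95%. A sum of 0 was given a limit of 3 UMIs (3.20 CPM in members), and a sum of 0 was set to it in ratios. For ranking genes by ratio, sums of 1 or 2 UMIs were also raised to 3. Shares were computed after thinning each cell to 2000 UMIs with a fixed seed. With 1 library in all, which held every group, no test was possible. The calculations were tested on simulated data. Subclusters used scanpy 1.11.5 (1000 variable genes, 15 components, 20 neighbours, Leiden resolution 0.5). Barcodes with the highest Scrublet scores, 13.8% of those scored, were marked as doublets, among them 4 of 89 members, which were kept. Free RNA was not corrected, and endothelial cells served as the comparison. Of 395 listed symbols, 393 were matched, 3 of them through RefSeq. Near-identical genes (Mgl2 and Clec10a, the Cd209 family, H2 genes) may share or lose reads.

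Genes were named if they belonged to the rule, were among the 25 with the highest ratio over the rest or the 12 highest or lowest against a compared group (at least 50 CPM), belonged to a list and were chosen for their level or role, or were Gfp or S100b. Some listed genes are not reported here. A few genes in the subclusters and the natural killer genes were named for their role. The members and lists were chosen with earlier results of these data known. Alternatives changed the depth, mitochondrial, C1q and Cd209a limits, thinned barcodes before the rule, removed doublets or weighted cells equally.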

Additional observations from a re-analysis of the deposited data

How the results depend on the processing

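No paired analysis was possible because all groups were barcodes of 1 library. The number of members depended on depth: 35 barcodes met the rule after thinning to 2000 UMIs, 26 of them among the 89, while the other alternatives gave 71 to 119. The MHC class II list (47353 CPM) read 48572 CPM at a minimum of 5000 UMIs, 48213 under 5% mitochondrial counts, 47855 with at most 2 C1q UMIs, 42882 with no C1q limit, 48532 with at least 2 Cd209a UMIs, 45479 after thinning, 48195 without doublets and 46188 as a mean over cells. Its log2 ratio over Ly6c2 Chil3 cells (2.58) was 2.61, 2.62, 2.11 and 2.62 at the depth, mitochondrial, absent C1q and Cd209a settings, 2.41 after thinning and 2.49 as a mean over cells. Leaving out barcodes with over 1% mesenchymal UMIs, chosen after seeing the data, gave 82 members, 47933 CPM and 2.50. Gfp (593 CPM) read 466 CPM after thinning and 514 CPM as a mean over cells, and its log2 ratio (-0.58) was -0.76 after thinning. The cause of these shifts was not tested. No direction reversed among these results. Of 22 genes followed, Irf4, Irf8, Lyz2, Il1b and Nrg1 moved over 1.5-fold with thinning. Among those that did so elsewhere were Irf8 and Apoe without the C1q limit, Apoe at the stricter C1q limit, and Nrg1 and Apoe as means over cells. Small numbers of UMIs limit the rare genes.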

Other observations

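The genes of the type I interferon response summed in Cd209a Flt3 cells to 672 CPM (621 to 727), against 1132 CPM in Xcr1 Clec9a cells, of which Ifi205 alone gave 822 CPM, 671 CPM in Ccr7 Fscn1 cells and 1048 CPM in Ly6c2 Chil3 cells, and 12 of 89 members had no UMI of it. Against Xcr1 Clec9a cells, 6 of 11 genes tested were higher and 1, Ifi205, was lower, at 30.9 CPM, beside 11.9% and 10.1% of all genes tested. The antiviral genes Isg15 and Bst2 were at 107 CPM against 22.4 CPM and 299 CPM against 125 CPM. Against Ly6c2 Chil3 cells 1 was higher and 4 were lower, beside 9.34% and 14.5%, so the higher count was near that share. The lower genes included Irf7 (9.602 CPM against 49.5) and Ifi204 (41.6 CPM against 271). Rsad2, at 32.0 CPM, had 50.0% of its UMIs in 1 cell.

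Immediate early genes, which respond to stimulation and to tissue digestion, summed to 7905 CPM (7726 to 8087) in members and 12630 CPM in the rest. None of 14 was higher or lower than in Xcr1 Clec9a cells by 2-fold, beside 11.9% and 10.1% of all genes tested. Atf3 was at 360 CPM against 153 CPM in Ly6c2 Chil3 cells, and Ier3 at 358 CPM against 1375 CPM. Among receptors for growth factors, those for GM-CSF, Csf2ra and Csf2rb, were at 158 and 165 CPM and under 2-fold from Xcr1 Clec9a and Ly6c2 Chil3 cells. Il4ra was at 74.7 CPM (58.2 to 94.4) against 24.0 CPM in Xcr1 Clec9a cells. The interferon gamma receptor Ifngr1 was at 265 CPM (233 to 300), against 60.7 CPM in Ccr7 Fscn1 cells.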
